A study of Homo sapiens with 4 samples.

Results

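DNA repair genes were compared between LNCaP cells given extra MED1 and LNCaP cells given an empty vector. The set held 38 genes of homologous recombination, the Fanconi pathway, damage signalling, mismatch repair, end joining, base excision and nucleotide excision. Every probe set that the platform annotation assigns to 1 of these genes alone was used, which gave 60 of the 22277 probe sets on the array and covered 36 of the 38 genes, among 11963 genes named in this way. BRCA2 and FANCA were not analysed here, because no probe set of the annotation used here names either of them alone. LNCaP is a line of human prostate cancer cells that respond to androgen, grown here in RPMI-1640 with 10% fetal bovine serum. In the MED1 group the cells were transiently transfected with an expression vector for MED1, part of the Mediator complex, which passes signals from DNA-bound factors to RNA polymerase II. In the empty group they received the vector without it, and both groups were transfected with Lipofectamine and kept for 24 hours. There were 2 arrays in each group, each made from 200 ng of total RNA, and the labels do not say whether duplicates were separate cultures.

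Homologous recombination repairs double-strand breaks by copying an intact sister DNA, so it works in cells that have replicated. Ends are trimmed by nucleases to leave a single strand, and the motor protein RAD54L later helps that strand to invade the intact copy. The Fanconi proteins unhook crosslinks and hand breaks to this pathway, end joining reseals breaks without a template, and the mismatch and excision pathways replace damaged or wrongly paired bases. Many recombination genes are transcribed mostly around S phase. The question put to the data was whether the lower RAD54L signal in the MED1 samples, known from an earlier look at these arrays, was shared by the other repair genes.

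The arrays were compared on the measures of quality the files allow. Median signals ran from 77.0 to 78.4 on the MED1 arrays and from 79.6 to 82.7 on the controls. Both MED1 medians thus lay below both control medians. Pearson's r over the 13329 tested probe sets was 0.986 to 0.992 between any 2 arrays, and it did not separate the groups. Empty vector replicate 1 correlated with the MED1 arrays at 0.990 and 0.991 and with empty vector replicate 2 at 0.990. For empty vector replicate 2 the values with the MED1 arrays were 0.986 and 0.989. The ratio of 3' to 5' signal of the actin control overlapped between the groups (9.32 and 9.40 against 8.14 and 9.45). That of the GAPDH control was much lower and overlapped too (1.16 and 1.24 against 1.16 and 1.27). The dimmer of 2 MED1 probe sets read 559 and 807 with the MED1 vector against 292 and 315 without it (2.15-fold, limma, Benjamini-Hochberg adjusted p = 0.032), while the brighter one read 1172 and 1074 against 1097 and 1011 (adjusted p = 0.83). Of the prostate luminal markers, 8 genes had probe sets and all 8 were measured above the filter on low signals, among them KLK3 (prostate-specific antigen) and KRT18. For basal, fibroblast and leukocyte or endothelial markers 1 of 4, 2 of 6 and 1 of 7 genes were.

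RAD54L fell in the MED1 samples and was the only repair gene of the set to pass the test. Its single probe set read 409 and 412 with the MED1 vector against 738 and 821 with the empty vector. Both MED1 arrays lay far below both control arrays, and they were nearly equal to each other. Mean signals of 411 ± 2.49 and 779 ± 58.6 (SD, n = 2 each) gave -0.90 ± 0.11 (SE, here and below) as log2 fold change, 1.86-fold lower (limma, Benjamini-Hochberg adjusted p = 0.0108 over 13329 probe sets). By size of change it was the 40th lowest of all tested probe sets. Since this fall was known when the genes were chosen, it is given as a description. The call was lost without empty vector replicate 2 (log2 fold change -0.82, adjusted p = 0.0579), with no filter on low signals (0.122) and without the trend in the variance model (0.232), and over all alternatives the adjusted p ran from 0.000122 to 0.232 with the log2 fold change between -0.97 and -0.82. In bulk RNA, fewer cells expressing a gene and less RNA per cell cannot be told apart.

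The remaining repair genes did not share a fall of that size. Of 55 tested probe sets of the set, 1 passed (adjusted p under 0.05), the RAD54L one, where the background was 0.293% of all tested probe sets in either direction, 0.188% lower and 0.105% higher. This is read only as a count, since that call was known beforehand. The other 54 gave log2 fold changes from -0.43 to 0.32 with a median of -0.05, against -0.02 for all tested probe sets. Their 95% intervals lay wholly above the upper bound of RAD54L's interval (-0.65) for 49 of the 54, and no interval held RAD54L's own value. The 5 that reached that bound were ERCC3, a pair of XRCC4 probe sets, a dim RAD52 one and a dim ATM one. For 50 of the 54 the interval held 0, and for 46 it lay within 1.5-fold in either direction, so for these a larger change was outside the interval. At an unadjusted p under 0.05 there were 2 lower (BARD1, ERCC3) and 2 higher (PARP1, ATR) besides RAD54L. These 4 are 7.41% of the 54, where the background was 9.20% (5.20% lower), so the share did not exceed the background. The MED1 and control arrays overlapped in 34 of the 55, where the background was 60.2%.

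**Figure D1:**
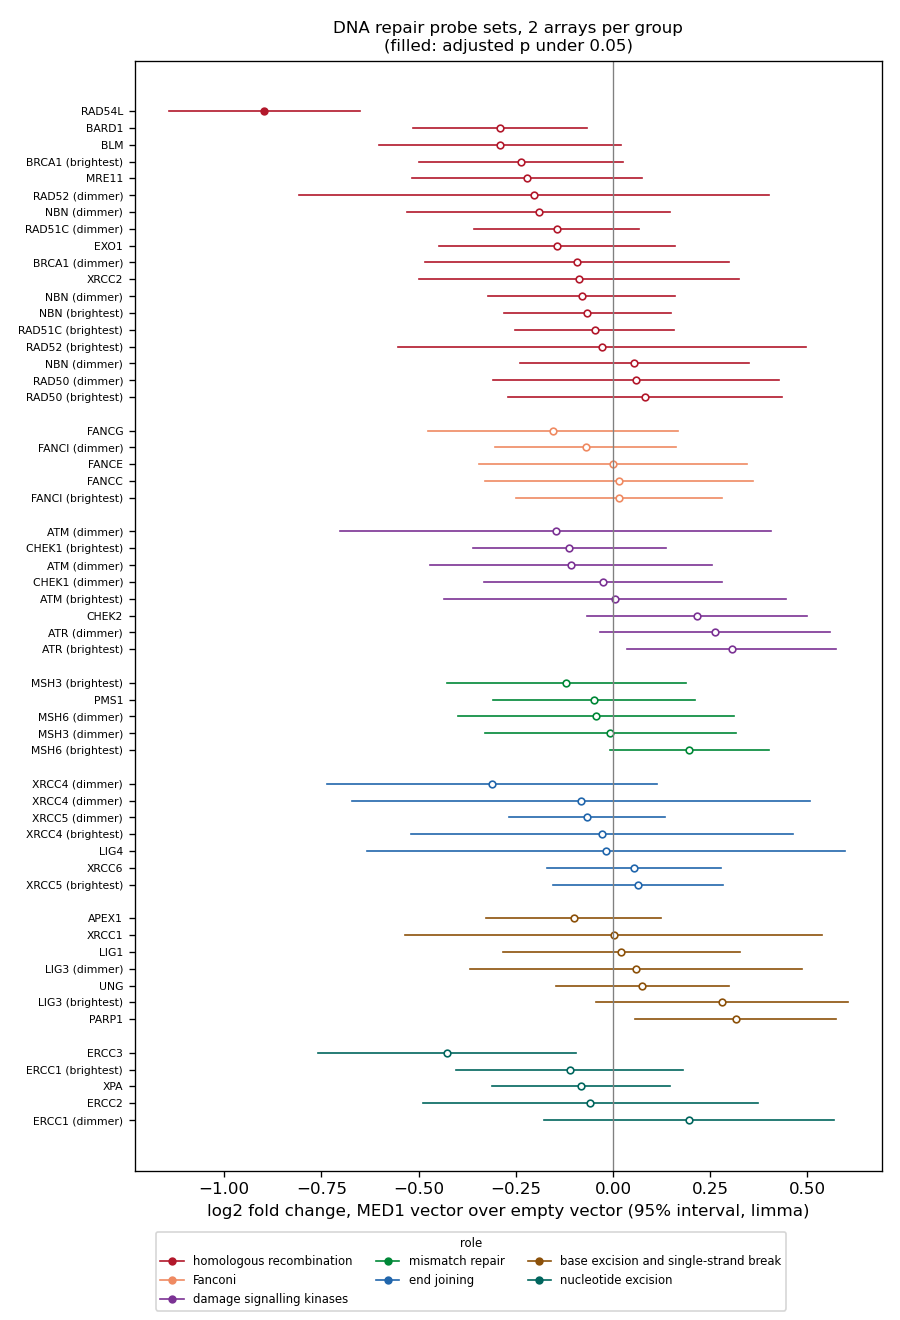
Log2 fold change (MED1 vector over empty vector, horizontal axis) of each of the 55 tested DNA repair probe sets, one per line, grouped by role, with the 95% interval from limma as a bar and a filled point where the adjusted p was under 0.05. RAD54L at -0.90 stands apart from the other 54, which lie between -0.43 and 0.32.

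Within the set the homologous recombination genes other than RAD54L had mostly negative values of small size. They made up 17 tested probe sets of 10 genes, of which 14 (82.4%) had a negative log2 fold change, where the background was 53.5%, and their median was -0.09. With RAD54L, whose fall was known, it was 15 of 18 and a median of -0.12. In 8 of the 17 (47.1%) both MED1 arrays lay below both empty vector arrays, where the background was 22.6%, and in 0 of the 17 did both lie above, where it was 17.2%. None of the 17 passed over all probe sets. The 37 tested probe sets of the other roles gave 6 below (16.2%) and 6 above (16.2%), with a median of -0.02. Centring each array on its median gave 5 of 17 below (29.4%) against a background of 15.7%, 12 of 17 negative against 41.5%, a median of -0.04 for the 17 and a median over all probe sets of 0.04. Under quantile normalization 7 of 17 lay below (41.2%) against 20.6%, and under both scalings 1 of the 17 lay above both controls. With 1 array left out the median of the 17 ran from -0.13 without MED1 replicate 1 to -0.07 without MED1 replicate 2. These probe sets share the same 4 arrays, and 5 of the 10 genes are counted by more than 1, so the counts are descriptive.

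BARD1, the partner of BRCA1 in a ubiquitin ligase, read 678 and 696 on the MED1 arrays against 820 and 869 on the controls. The groups did not overlap, and the log2 fold change was -0.29 ± 0.10 (limma, adjusted p = 0.431). BRCA1 itself, which promotes end trimming, read 678 and 637 against 851 and 710 by its brighter probe set (-0.24 ± 0.12, adjusted p = 0.584). A dimmer BRCA1 probe set read 112 and 110 against 113 and 127 and differed by little (-0.09 ± 0.17). BLM, a helicase that unwinds recombination intermediates, read 286 and 318 against 338 and 409 (-0.29 ± 0.14, adjusted p = 0.581). For all 4 probe sets the MED1 arrays were both the lower ones, at differences far smaller than that of RAD54L. These 4 belong to the 8 of 17 recombination probe sets without RAD54L that lay below, against the background of 22.6%. In the other 9 of the 17 the groups overlapped.

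The nuclease EXO1, which extends trimmed ends, read 282 and 244 with MED1 against 289 and 295 without (-0.14 ± 0.13, adjusted p = 0.786). MRE11 (MRE11A in older annotation) starts the trimming within a complex with RAD50 and NBN, and read 289 and 288 against 367 and 313 (-0.22 ± 0.13, adjusted p = 0.631). Its partners did not lie to one side: RAD50 read 368 and 459 against 440 and 342 by its brighter probe set (0.08 ± 0.16), with the arrays of the groups interleaved. A dimmer RAD50 probe set gave 0.06. NBN gave -0.07, -0.19, -0.08 and 0.06 over 4 probe sets, all with overlapping groups. So of this 3-protein complex only MRE11 had both MED1 arrays below both controls, and its difference did not pass the test.

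RAD51C and XRCC2 both act in homologous recombination after the ends are trimmed. RAD51C read 1314 and 1325 in the MED1 samples against 1386 and 1343 by its brighter probe set, a log2 fold change of -0.05 ± 0.09, and 1066 and 1082 against 1156 and 1225 by the other (-0.15 ± 0.09). In both the groups did not overlap, yet the interval of the brighter one reached no lower than -0.25. XRCC2 read 108 and 114 against 107 and 132, and RAD52, an annealing factor, 45.5 and 45.4 against 44.1 and 49.3, both with overlapping groups at low signals. A dimmer RAD52 probe set gave -0.20 ± 0.27, also with overlapping groups. The named genes of this group that fall outside the rule for named genes (BLM, BRCA1, MRE11, EXO1, NBN, RAD51C, XRCC2, RAD52) are given to complete it, with their values already known.

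**Figure D2:**
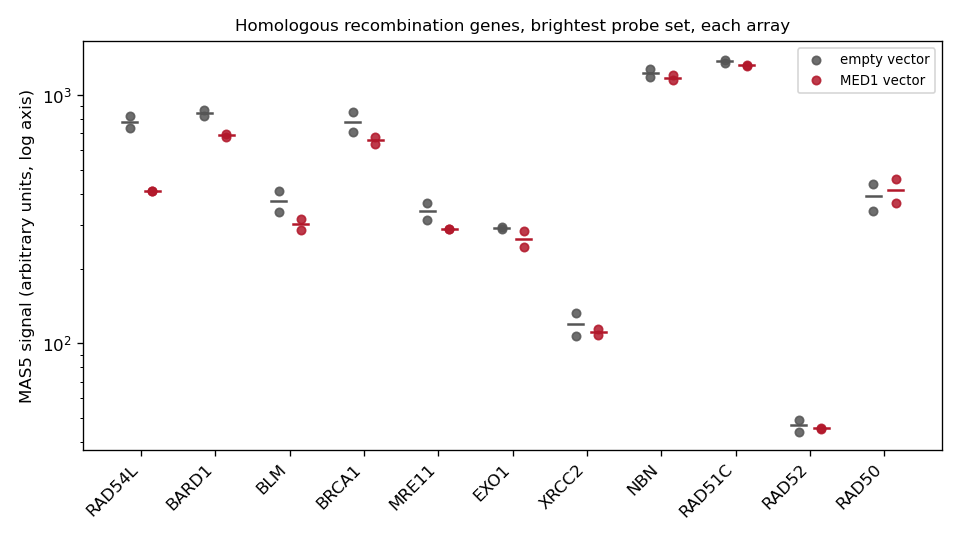
MAS5 signal (vertical log axis, arbitrary units) of the brightest tested probe set of each of the 11 homologous recombination genes on each of the 4 arrays, grey for empty vector and red for MED1 vector, with short lines at the group means. The RAD54L arrays read 409 and 412 against 738 and 821, whereas for the other genes the gaps between the groups are smaller or absent; heights of different genes are not comparable.

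Promoter sequences are shown for the recombination genes whose window held the core letters bound by E2F, the factor family that drives S phase genes, because they let RAD54L be set beside genes that carry the same letters. Windows of 300 bases, 250 before to 50 after each start site, came from RefSeq on GRCh38.p14, and 33 of the 36 genes matched. Both strands were searched for GGCGGGAA (E2F), CCAAT (the NF-Y box), TTTGAA (a cell cycle homology region, CHR) and TGATGNAA (the composite site of C/EBP and ATF factors), letters chosen after the RAD54L window had been seen. Capitals mark the matches, which did not overlap each other. In RAD54L they are ATTGG, TTCCCGCC and CCAAT from bases 186, 202 and 249, counted from the first base printed, with the start site at base 251. The windows are chr1:46247438-46247737 (plus strand) for RAD54L, chr15:90717096-90717395 (plus strand) for BLM, chr12:949645-949944 (minus strand) for RAD52 and chr7:152676092-152676391 (minus strand) for XRCC2, each printed 5′ to 3′ along its gene. RAD54L and RAD52 have 2 windows each in the table, and the one shown is the most upstream that held the E2F letters.
RAD54L: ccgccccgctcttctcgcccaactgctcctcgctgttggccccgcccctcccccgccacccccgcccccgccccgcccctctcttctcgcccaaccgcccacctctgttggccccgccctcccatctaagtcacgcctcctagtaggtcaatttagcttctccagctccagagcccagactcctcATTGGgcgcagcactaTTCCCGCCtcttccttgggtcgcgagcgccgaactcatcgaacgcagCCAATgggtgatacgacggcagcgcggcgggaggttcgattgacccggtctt
BLM: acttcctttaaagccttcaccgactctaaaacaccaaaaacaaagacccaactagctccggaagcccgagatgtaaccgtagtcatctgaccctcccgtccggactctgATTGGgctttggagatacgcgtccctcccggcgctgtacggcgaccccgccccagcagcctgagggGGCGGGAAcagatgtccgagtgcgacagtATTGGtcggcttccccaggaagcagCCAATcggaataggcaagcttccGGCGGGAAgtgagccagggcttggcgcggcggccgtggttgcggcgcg
RAD52: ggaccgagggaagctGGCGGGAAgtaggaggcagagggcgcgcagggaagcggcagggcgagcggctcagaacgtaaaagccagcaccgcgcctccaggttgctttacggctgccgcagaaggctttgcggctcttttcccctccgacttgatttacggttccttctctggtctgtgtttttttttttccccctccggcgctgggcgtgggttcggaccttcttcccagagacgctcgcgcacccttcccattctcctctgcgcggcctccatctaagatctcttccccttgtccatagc
XRCC2: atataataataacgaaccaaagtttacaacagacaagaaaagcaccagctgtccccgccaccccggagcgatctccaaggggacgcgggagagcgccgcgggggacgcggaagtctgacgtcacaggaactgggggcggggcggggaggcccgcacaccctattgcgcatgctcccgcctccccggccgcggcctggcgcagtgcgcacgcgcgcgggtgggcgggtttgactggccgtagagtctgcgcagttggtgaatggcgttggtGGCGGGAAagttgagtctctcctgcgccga

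The E2F letters stood in a window of 7 of the 33 matched repair genes (21.2%) and of 3.79% of the 27305 genes in the table. The 7 include RAD54L, whose window had been seen, and the table is not limited to genes on the array. Counted by window, since genes differ in their number of windows, it was 10 of 52 (19.2%) against 3.16% of 35116. Of the 10 matched recombination genes 4 had them. BLM holds both motifs found in RAD54L, E2F and CCAAT, and its log2 fold change was -0.29 against -0.90. RAD52 gave -0.03 by its brightest probe set and -0.20 by a dimmer one, and XRCC2 gave -0.09. Outside recombination the E2F letters stood in FANCC, LIG1 and MSH6, which gave 0.02, 0.02 and 0.20 by their brightest probe sets. MSH6 had the CCAAT letters as well. The CCAAT letters stood in 17 of 33 (51.5%, against 39.7% of all genes), TTTGAA in 5 of 33 (15.2%, against 18.2%) and TGATGNAA in 0 of 33 (against 4.46%). A match describes the letters alone and is no evidence of binding.

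The Fanconi genes of the set did not lie to one side in any probe set. FANCI, which is monoubiquitinated at crosslinks, read 2347 and 2235 with MED1 against 2538 and 2020 by its brighter probe set (log2 fold change 0.02 ± 0.12). FANCG, a core complex subunit, read 395 and 305 against 382 and 395 (-0.15 ± 0.14). FANCC gave 0.02 and FANCE -0.000304, both core subunits too. The 2 groups overlapped in all 5 tested probe sets, where the background was 60.2%. The Fanconi genes of the further repair list described below differed. Of their 5 tested probe sets 3 lay below both controls and 2 above, against backgrounds of 22.6% and 17.2%.

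Among the kinases that signal damage, ATR had higher signals in the MED1 samples by both its probe sets. ATR, which senses stalled replication forks, read 941 and 877 against 810 and 662 (0.30 ± 0.12; limma, adjusted p = 0.474) and 310 and 330 against 280 and 249 (0.26 ± 0.13). The groups did not overlap in either, and neither passed. The brighter one was 0.16 without empty vector replicate 2 and 0.45 without empty vector replicate 1. CHEK2, which acts below ATM at breaks, read 364 and 418 against 341 and 327 (0.22 ± 0.13), also without overlap. CHEK1, which acts below ATR, read 472 and 441 against 488 and 501 by its brighter probe set, a small difference the other way (-0.11 ± 0.11). ATM gave 0.00499 by its brightest probe set, with overlapping groups, and -0.11 and -0.15 by dimmer ones. In the ATM probe set at -0.11 and the brighter CHEK1 one both MED1 arrays lay below both controls. In this role 3 of 8 tested probe sets thus lay above and 2 below, against the backgrounds of 17.2% and 22.6%.

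The mismatch genes stayed close to 0, apart from 1 probe set. MSH6, which takes part in recognising single mismatches, read 1482 and 1449 in the MED1 samples against 1265 and 1288 (0.20 ± 0.09; limma, adjusted p = 0.565). The groups did not overlap, but a dimmer MSH6 probe set read 146 and 145 against 156 and 145 (-0.04 ± 0.16). MSH3, which recognises larger loops, gave -0.12 ± 0.14 and -0.01, and PMS1 gave -0.05, all with overlapping groups.

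End joining genes included the brightest probe sets of the whole set. The Ku subunits XRCC5 and XRCC6, which cap broken ends, read 5565 and 6044 against 5455 and 5637, and 5565 and 5485 against 5029 and 5637. Their log2 fold changes were 0.06 ± 0.10 and 0.05 ± 0.10, with 95% intervals from -0.15 to 0.28 and from -0.17 to 0.28. A dimmer XRCC5 probe set gave -0.07, with both MED1 arrays below both controls. In this role 2 of 7 tested probe sets, from XRCC5 and XRCC4, lay below and 0 above, against backgrounds of 22.6% and 17.2%. XRCC4, the scaffold of the end ligase, read 97.0 and 99.0 against 124 and 80.7 by its brightest probe set (-0.03 ± 0.22), and 83.0 and 91.9 against 103 and 122 by a probe set of the class whose probes can match further transcripts (-0.31 ± 0.19). This class held 6 tested probe sets of the repair set. The others were the only XRCC2 one, the dimmer BRCA1 and MSH3 ones, the ATM one at -0.11 and the NBN one at -0.19. The ligase LIG4 was dim, at 39.9 and 34.6 against 29.6 and 47.6, and its interval ran from -0.63 to 0.60, too wide to show a change of either direction.

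The base excision and single-strand break genes of the set had mostly positive values, and none passed. Those of the further repair list described below went the other way, with 14 of 21 tested probe sets negative and a median of -0.15. PARP1, which binds strand breaks and builds poly(ADP-ribose), read 3478 and 3703 with MED1 against 3197 and 2594 (0.32 ± 0.11; limma, adjusted p = 0.452), and 0.17 without empty vector replicate 2 or 0.47 without empty vector replicate 1. LIG3, a ligase that seals such breaks, read 227 and 246 against 182 and 202 (0.28 ± 0.14), and a dimmer LIG3 probe set gave 0.06. In the PARP1 and brighter LIG3 probe sets the groups did not overlap. Of 7 tested probe sets 6 had positive values, where 53.5% of all tested probe sets were negative, and the exception was the abasic site nuclease APEX1, at 3937 and 4262 against 4169 and 4634 (-0.10 ± 0.10). UNG, which removes uracil, the scaffold XRCC1 and the replicative ligase LIG1 gave 0.08, 0.00128 and 0.02, with overlapping groups.

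Of the nucleotide excision genes ERCC3 had the largest difference of the set after RAD54L. ERCC3, the XPB helicase of transcription factor TFIIH, read 353 and 305 with MED1 against 395 and 506 (-0.43 ± 0.15; limma, adjusted p = 0.431). The groups did not overlap, but without empty vector replicate 2 the value was -0.25 and without empty vector replicate 1 it was -0.60. ERCC2, the XPD helicase of the same factor, read 103 and 88.0 against 92.6 and 108 (-0.06 ± 0.19). The damage sensor XPA read 666 and 705 against 745 and 709, a small gap of -0.08 ± 0.10, and ERCC1, a nuclease subunit, gave -0.11 and 0.20 by 2 probe sets.

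A further list of 92 repair genes outside the set gave 95 tested probe sets of 63 genes, of which 0 passed (limma, adjusted p under 0.05) and 11 had an unadjusted p under 0.05, 9 lower and 2 higher. That is 11.6%, against the background of 9.20%. In 37 of the 95 (38.9%) both MED1 arrays lay below both controls and in 13 (13.7%) above, against the backgrounds of 22.6% and 17.2%. Of its homologous recombination probe sets 20 of 22 were negative, against 53.5% of all tested probe sets, the median was -0.15, and 13 of 22 lay below against 1 above. Without MED1 replicate 2 only 14 of the 22 were negative. Other roles of the list lay as low. The medians were -0.21 for Fanconi, -0.16 for end joining and -0.15 for base excision genes (5, 5 and 21 probe sets). They were -0.06 for damage signalling, 0.01 for nucleotide excision and 0.04 for mismatch repair genes (20, 19 and 3 probe sets). RMI1, which works with BLM to dissolve recombination intermediates, read 1764 and 1903 against 2449 and 2286 (-0.37 ± 0.09, adjusted p = 0.269). USP1, which removes ubiquitin from Fanconi proteins, had the lowest p of the list: it read 1599 and 1630 against 2362 and 2202 by its dimmer probe set (-0.49 ± 0.09, adjusted p = 0.0941) and gave -0.21 by its brighter one. TP53BP1, which shields broken ends from trimming, went the other way at 240 and 273 against 155 and 181 (0.57 ± 0.15, adjusted p = 0.277), with 0.06 by a dimmer probe set. CCNH, a cyclin of TFIIH, gave 0.22 ± 0.10 (adjusted p = 0.543).

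Since recombination genes follow the cell cycle, S phase and mitotic lists are given beside them. Of 43 tested S phase probe sets 0 passed (limma), and 5 lower and 2 higher (16.3%) had an unadjusted p under 0.05, against the background of 9.20%. Of the 43, 12 (27.9%) lay below both controls and 4 (9.30%) above, against 22.6% and 17.2%, and the median was -0.08. The summed signal of its 29 genes was 60084 and 60892 with MED1 against 63299 and 61708, lower on both MED1 arrays. PRIM1, a primase subunit, gave -0.42 ± 0.09 (adjusted p = 0.181) and RFC4, a clamp loader subunit, -0.35 ± 0.09 (0.269), whereas the clamp PCNA gave 0.36 ± 0.13 (0.459) and CCNE1, cyclin E, 0.28 ± 0.11 (0.487). Of 34 tested G2 and mitosis probe sets 0 passed, and 1 lower and 1 higher (5.88%) had an unadjusted p under 0.05. Of the 34, 13 (38.2%) lay below and 4 (11.8%) above, against the same backgrounds, and the median was -0.05. MKI67, the Ki-67 antigen, gave -0.50 ± 0.11 (adjusted p = 0.215) by its brightest probe set and 0.49 ± 0.22 by its dimmest, FOXM1, which drives mitotic genes, -0.22 ± 0.10, and AURKA, a spindle kinase, 0.58 ± 0.25 by a dim probe set and 0.01 by its brightest. The summed signal of its 22 genes, 39331 and 39900 against 40283 and 38172, overlapped between the groups. The luminal prostate markers, chosen as a cell type list and not as repair genes, had a median of -0.12 over 12 probe sets. Of these 0 passed (limma), and 6 lay below both controls and 0 above, against 22.6% and 17.2%. The median of these markers was lower than the -0.09 of the recombination genes without RAD54L. Whether the cell cycle or the luminal marker values had a part in the recombination values was not tested.

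**Figure D3:**
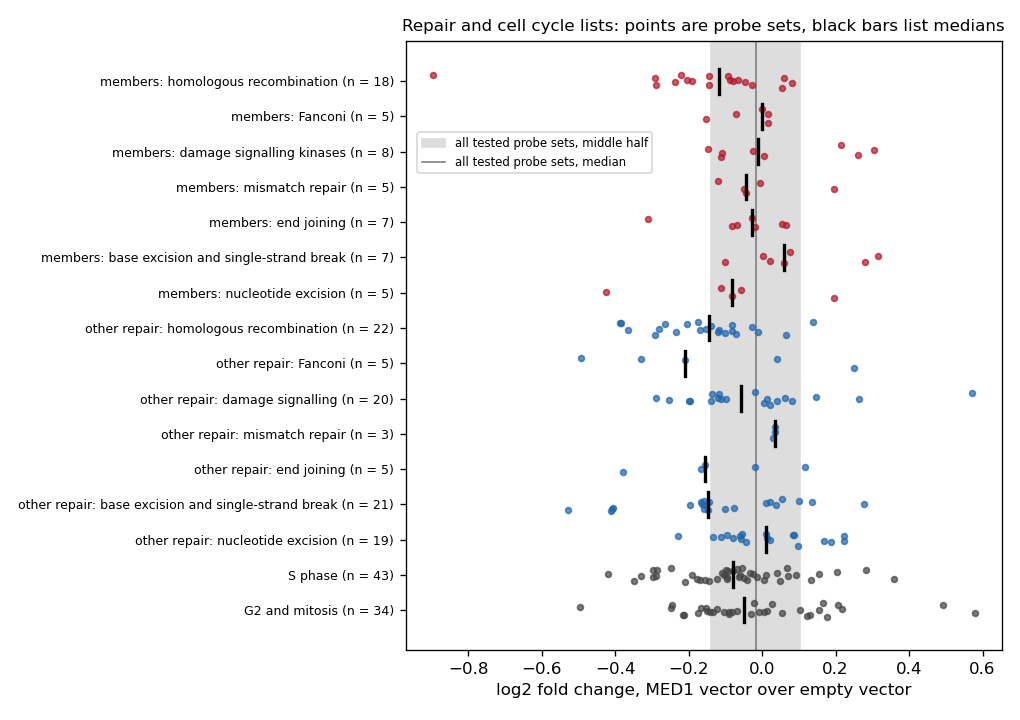
Log2 fold changes (horizontal axis) of the tested probe sets of each repair role in the set (red), of the further repair genes (blue) and of the S phase and mitosis lists (grey), with black bars at list medians and a band from the lower to the upper quartile of all 13329 tested probe sets. The medians of both homologous recombination lists, -0.12 (-0.09 without RAD54L) and -0.15, lie left of the overall median of -0.02, and RAD54L is the far point of the top line. Those of the further Fanconi (-0.21), end joining (-0.16) and base excision (-0.15) genes, among others, lie left of -0.02 too.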

How the data were processed

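The authors deposited linear MAS5 signal intensities, per the submitters' processing notes. No other upstream step is given in the sources used here. Arrays have no read depth, and their number limits the precision. The authors' deposited intensities had the same trimmed mean (500.2) on each array and were not rescaled. Dim MAS5 signals are noisy, and detection calls were not used. Groups came from titles, source names and transfection labels; the description field of the control samples names the MED1 vector instead. Of 22215 probe sets that are no controls, 19064 named 1 gene.

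Signals were transformed to log2(value + 16), so fold changes of dim genes are understated. A filter removed the 8886 probe sets whose mean log2 value was below the 40th percentile, near a signal of 31, including 5 of the 60 repair probe sets, second probe sets of XRCC4, MRE11, MSH6, RAD52 and XRCC6. The rest were fitted together with limma 3.58.1 under R 4.3.3, with lmFit and with eBayes using an intensity trend, and Benjamini-Hochberg adjustment at 0.05, two-sided. The p-values reflect only the spread among these samples, possibly technical, and largely borrowed from other probe sets (prior degrees of freedom 7.3, residual 2). An exact permutation test with 2 arrays in each group has a smallest two-sided p of 0.333. The labels do not say whether same-numbered arrays were handled together, and the main fit used no pairing. The fit was checked on simulated data. A background share is the percentage of all tested probe sets that meet the same rule. Where a gene had several probe sets, each was tested, and the brightest is that of highest mean.

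The members and the lists were chosen with earlier results of these data known. Genes were named by a rule: RAD54L, the lowest and highest of each role, members at an unadjusted p under 0.05, those whose probe sets then differ in sign, and from other lists those with an adjusted p under 0.05 and the 2 of lowest p in each direction. Others are given to complete a role. Alternatives covered the pseudocount, scaling, filter, variance model, replicate block, averaged probe sets and each array left out. Plots used matplotlib 3.10.9.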

Additional observations from a re-analysis of the deposited data

How the results depend on the processing

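The count of called probe sets over the whole table was 39; it was 0 with no filter on low signals (limma, 0 of 22215, with 1680 at an unadjusted p under 0.05, where RAD54L had an adjusted p of 0.122), 5 without the variance trend, 239 with the replicate number as a block and 25 to 216 with 1 array left out, and the cause was not tested. The repair set kept its 1 call except with no filter, without the trend and without empty vector replicate 2, where it was 0 (range 0 to 1 with an array left out). RAD54L was -0.90 with no filter and without the trend (adjusted p = 0.232), and -0.97 to -0.82 with 1 array left out. The replicate block left the repair calls as they were. Deviations of the replicate 1 arrays from their group means correlated at 0.12 over the tested probe sets. With 2 arrays a group, those of replicate 2 are the same values with the sign reversed. The median of the repair probe sets was -0.05; it was 0.00239 after centring on array medians, -0.026 after quantile normalization, -0.062 with no filter, -0.066 with probe sets averaged per gene and -0.080 to -0.041 with 1 array left out, so its sign rests on the scaling. Of the 14 other named members none was called under any of the 14 alternatives, and 182 of 194 values kept their direction. The 12 that turned belonged to XRCC4 (0.024 when centred, 0.022 when quantile normalized, -0.29 to 0.24 with 1 array left out), FANCI (-0.027 averaged, -0.15 to 0.18), XRCC5 (-0.00168 averaged), FANCG (-0.33 to 0.025), RAD50 (-0.093 to 0.26) and ERCC2 (-0.16 to 0.039). The counts of recombination probe sets under other scalings were added after the data were seen. With 2 arrays a group and no detection calls, small changes of dim genes such as LIG4, RAD52 and XRCC1 cannot be resolved.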
